A study of Rattus norvegicus with 8 samples.

Results

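The genes described are 10 components and direct outputs of the circadian clock: Npas2, the period genes Per1, Per2 and Per3, the cryptochrome genes Cry1 and Cry2, Ciart, the REV-ERB receptor genes Nr1d1 and Nr1d2, and Dbp. They were chosen by name, with earlier results of these data known. The 19 non-control probes that carry 1 of these gene names on the array stand for them, out of 45598 non-control probes and 35828 gene names in all. Of the 19 probes, 16 stood well above background in 4 or more of the 8 arrays, and each of the 10 genes had such a probe. RNA came from hippocampal neurons of Wistar rats of postnatal day 0 to 1, infected with lentivirus (multiplicity of infection 6) on culture day 3 and harvested 7 days later, on day 10. In 4 samples the lentiviral vector carried an shRNA against rat Sirt6, and in the other 4 samples it carried a scrambled control shRNA. The purpose of the series was to learn how SIRT6, a deacetylase that uses NAD, acts in neuronal morphogenesis. All 8 samples carried a vector, the labels give no time of day for the harvest, and each culture was read at 1 time, so the values are levels and not rhythms.

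In the mammalian clock, BMAL1 pairs with CLOCK or with its relative NPAS2, and the pair activates genes that carry E-box sequences, among them the Per, Cry, Nr1d, Dbp and Ciart genes. PER and CRY proteins return to repress that pair, which closes the main loop. A second loop sets the level of Bmal1, which ROR receptors activate and REV-ERB receptors repress, and the factors DBP, TEF and HLF activate D-box genes that NFIL3 represses. In the hippocampus and in other tissues outside the suprachiasmatic nucleus, Per genes are also induced directly by neuronal activity, cAMP and glucocorticoids.

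With the Sirt6 shRNA the clock genes moved both ways. Npas2 (1.53-fold), Dbp (1.45-fold), Cry1 (1.18-fold), Nr1d1 (1.13-fold) and Per1 (1.11-fold) were lower, and Ciart (1.41-fold on its brightest probe), Per2 (1.37-fold) and Nr1d2 (1.18-fold) were higher. Cry2 and Per3 did not pass the test. Differences are log2 values of the processed signal, scaled to each array's 75th percentile, Sirt6 shRNA minus scrambled shRNA, and a gene was called at a limma adjusted p under 0.05 over all 22549 genes tested. By that rule 5 of the 10 genes were lower and 3 were higher, against 14.8% lower, 15.6% higher and 30.4% in either direction over all genes. The median difference was -0.061 over the 10 genes and 0.021 over all genes, and the median size of the difference was 0.24 over the 10 genes and 0.14 over all genes. The 4 arrays of a group all lay on 1 side of the other 4 for 8 of the 10 genes, 3 of them above (17.4% of all genes), 5 below (16.1%), and 33.4% of all genes in either direction. Since the 10 genes were chosen with earlier results of these data known, these shares are a description and no test of the list.

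**Figure D1:**
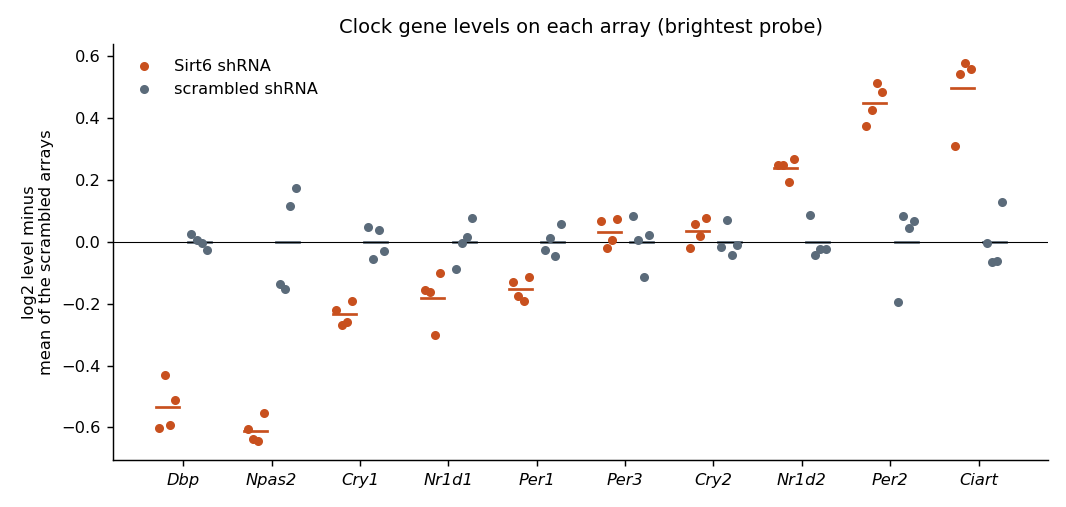
Level of each of the 10 clock genes in every array (log2 processed signal minus the array's 75th percentile, brightest probe, set relative to the mean of the 4 scrambled arrays), Sirt6 shRNA left of scrambled shRNA; points are arrays and short lines are group means (n = 4 each). Dbp and Npas2 lie lowest with the Sirt6 shRNA, Per2 and Ciart highest, and the groups of Cry2 and Per3 overlap.

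Sirt6 itself was checked first. Its processed signal was 486, 489, 484 and 446 in the Sirt6 shRNA arrays, against 1337, 1318, 1347 and 1343 in the scrambled arrays. All 4 Sirt6 shRNA arrays lay far below the others, at 34.6% of the scrambled level (log2 difference -1.53 ± 0.040 SE, limma adjusted p = 5.5e-06). Across the 8 arrays 60.4% to 65.3% of probes were well above background and the median processed signal was 24.1 to 27.5. Pairs of arrays of 1 group had r = 0.9954 to 0.9975 and pairs of different groups 0.9913 to 0.9935, over probes, which are not replicates. The arrays lay on 1 slide, Sirt6 shRNA in its row 2 and scrambled shRNA in its row 1, and a row effect cannot be told apart from the shRNA. Whether replicates were separate cultures is not in the labels. The p-values therefore rest on the spread among these arrays, and that spread may be technical. In bulk RNA, fewer cells of a type and less RNA per cell cannot be told apart.

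Npas2 encodes the activator that can take the place of CLOCK, and of the 10 genes it showed the largest difference. Its probe (A_44_P945456, chr9:38433884-38433943, plus strand, build rn4 as given in the files) had processed signals of 106, 102, 107 and 108 with the Sirt6 shRNA, against 139, 140.2, 176 and 177 with the scrambled shRNA. The Sirt6 shRNA arrays were nearly equal to each other and all below the scrambled arrays, which split into a lower and a higher pair. The difference was -0.61 ± 0.081 (log2 ± SE, n = 4 per group, limma adjusted p = 0.00119), which left 65.5% of the scrambled level, and its size was greater than that of 95.0% of the genes tested. It stayed called under all 21 alternative settings of background, scaling, filter, probe rule, fit and left-out array, between -0.66 and -0.42. Of the other genes of the same step, Bmal1, the common partner (named Arntl in the files), was lower, with 633, 611, 706 and 637 in Sirt6 shRNA arrays against 695, 730.1, 767 and 804 in scrambled arrays (log2 -0.25 ± 0.051 SE, limma adjusted p = 0.00783). The brighter of 2 Clock probes had signals of 6.67, 9.58, 12.9 and 14.2 in Sirt6 shRNA arrays and 9.14, 10.6, 7.54 and 11.52 in scrambled arrays. These are close to background, and the probe was well above it on 3 arrays of each group. The groups of that probe overlapped (0.078 ± 0.25, limma adjusted p = 0.842), and the sign changed in 4 of the 21 alternative settings, and a change was not detectable at this signal. The second Clock probe (A_64_P075337), well above background on all 8 arrays, gave 0.058 ± 0.107 with overlapping groups (limma adjusted p = 0.721 over probes). The difference between Clock and Bmal1 was not tested.

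Per2 was the period gene that rose. PER2 is a core repressor of the loop, and Per2 reporters are widely used to follow the clock. Its only probe (A_42_P708593, chr9:90645610-90645669, minus strand, rn4) read 330.4, 338, 376 and 348 with the Sirt6 shRNA, against 210.5, 261, 264 and 259 with the scrambled shRNA. Every Sirt6 shRNA array lay above every scrambled array, and scrambled replicate 1 lay below the other 3. The difference was 0.45 ± 0.069 (log2 ± SE, limma adjusted p = 0.00228), or 1.37-fold higher, and it was 0.39 without scrambled replicate 1 and stayed between 0.38 and 0.52 and called in all 21 settings. The 250 bases before the Per2 start in the RefSeq promoter table (assembly GRCr8, chr9:99496994-99497243, minus strand) are shown because they are the only ones among the 9 clock genes in that table to hold a D-box. A CACGTT sequence stands in the same stretch, and both are in capitals.
Per2: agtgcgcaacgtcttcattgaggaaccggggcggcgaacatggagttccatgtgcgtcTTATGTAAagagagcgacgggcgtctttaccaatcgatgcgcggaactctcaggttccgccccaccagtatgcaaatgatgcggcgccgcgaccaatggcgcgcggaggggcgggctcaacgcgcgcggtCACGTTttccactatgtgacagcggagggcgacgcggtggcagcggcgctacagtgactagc
The D-box (searched as TTATGTAA or TTACGTAA) begins 192 bases before the start and is found in 0.932% of 33469 RefSeq promoters of this length, on either strand. The CACGTT, a variant of the E-box called the E′-box, begins 62 bases before the start and is found in 4.07%. A match is a run of letters and does not show that a factor binds there.

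Per1 moved the other way, by less. PER1 works with PER2 in the same repressor complex. Its brighter probe (A_43_P14090, chr10:55869174-55869233, plus strand, rn4) read 1615, 1543, 1597 and 1594 in Sirt6 shRNA arrays, against 1639, 1722, 1716 and 1784 in scrambled arrays. The groups did not overlap, though the highest Sirt6 shRNA array and the lowest scrambled array were close. The difference was -0.15 ± 0.039 (log2 ± SE, limma adjusted p = 0.0207), and the call was lost without Sirt6 shRNA replicate 3 (adjusted p = 0.0594) and without scrambled replicate 2 (0.0561) or 4 (0.0543). It was also lost with scaling on the E1A spike-in probes, which read control RNA added during labelling (-0.078, adjusted p = 0.62), with no filter on dim probes (0.0570) and with the mean of both probes (0.0629). The dimmer probe (A_44_P114034) read 50.1, 45.2, 55.2 and 47.4 in Sirt6 shRNA arrays against 49.2, 58.8, 49.8 and 59.0 in scrambled arrays, and its groups overlapped (-0.17 ± 0.083, limma adjusted p = 0.165 over probes).

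Per3, the third period gene, has a weaker part in the loop than Per1 and Per2 in mice. Its brightest probe (A_64_P119407, chr5:168152779-168152838, minus strand, rn4) read 85.5, 79.5, 84.7 and 84.0 in Sirt6 shRNA arrays and 81.7, 79.3, 75.9 and 80.5 in scrambled arrays. The groups overlapped, with a difference of 0.031 ± 0.050 (log2 ± SE, limma adjusted p = 0.677) that turned negative after median centring (-0.014) and without scrambled replicate 3 (-0.0064). The other 2 probes of Per3 were not well above background on any array. Their signals were 1.39 to 2.14 in Sirt6 shRNA arrays and 1.04 to 1.76 in scrambled arrays, and they were not tested.

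The cryptochromes are the main repressors of the loop, and here Cry1 was lower while Cry2 was not called. Cry1 (A_44_P374708, chr7:20708985-20709044, plus strand, rn4) read 769.8, 734, 773 and 766 with the Sirt6 shRNA, against 874, 832, 924 and 851 with the scrambled shRNA. All 4 Sirt6 shRNA arrays were below all 4 scrambled arrays (log2 difference -0.23 ± 0.040 SE, limma adjusted p = 0.00354, 1.18-fold lower). The call held in 20 of 21 settings and was lost with E1A spike-in scaling (-0.16, adjusted p = 0.252). Cry2 (A_44_P1085158, chr3:76800939-76800998, minus strand, rn4) read 6688, 6969.7, 7095 and 6984 in Sirt6 shRNA arrays and 6327, 6879.5, 6608 and 6529.6 in scrambled arrays. On the scaled level the Cry2 groups overlapped, with a difference of 0.034 ± 0.041 (log2 ± SE, limma adjusted p = 0.568), or -0.011 after median centring.

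Ciart, also known as Chrono, encodes a repressor that binds BMAL1 and CRY in mice, and it was higher on every probe that could be tested. The array carries 5 probes for it, all on the minus strand of chromosome 2 in rn4. They are shown because probes of 1 gene agree only in part in size, and because they are not all independent: the capitals mark 37 bases that A_44_P1092256 and A_44_P687053 share.
A_44_P1102967 (chr2:190665592-190665651): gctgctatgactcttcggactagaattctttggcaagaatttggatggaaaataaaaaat
A_44_P1081870 (chr2:190661052-190662122): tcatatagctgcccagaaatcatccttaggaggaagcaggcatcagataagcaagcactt
A_44_P1092256 (chr2:190670873-190670932): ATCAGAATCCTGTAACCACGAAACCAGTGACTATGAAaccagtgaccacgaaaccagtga
A_44_P687053 (chr2:190670896-190670955): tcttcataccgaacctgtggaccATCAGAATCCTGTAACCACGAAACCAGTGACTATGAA
A_44_P1092261 (chr2:190670634-190670693): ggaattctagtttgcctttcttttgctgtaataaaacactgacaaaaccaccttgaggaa
The span of A_44_P1081870 is 1071 bases for a probe of 60, so the files place it in more than 1 block. Which exon or UTR each probe lies in was not analysed here.

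The brightest Ciart probe, A_44_P1102967, read 36.7, 42.6, 45.7 and 42.6 with the Sirt6 shRNA, against 27.9, 27.3, 28.5 and 31.4 with the scrambled shRNA. A_44_P1081870 read 28.7, 24.9, 30.6 and 25.6 in Sirt6 shRNA arrays, against 11, 14.9, 17.3 and 13.4 in scrambled arrays. On both probes the Sirt6 shRNA arrays all lay above the scrambled arrays, with differences of 0.50 ± 0.073 and 0.93 ± 0.12 (log2 ± SE, limma adjusted p = 0.00193 over genes and 0.00104 over probes). A_44_P1092256 read 25.9, 25.5, 22.3 and 23.3 in Sirt6 shRNA arrays, against 10.9, 11.7, 13 and 15.8 in scrambled arrays. A_44_P687053 read 20.3, 20.7, 21.7 and 16.3 in Sirt6 shRNA arrays, against 12.2, 13.7, 15.2 and 12.4 in scrambled arrays. The groups of these overlapping probes did not overlap either, and their differences were 0.88 ± 0.11 and 0.52 ± 0.091 (limma adjusted p = 0.00103 and 0.00446 over probes). All 4 probes were thus called higher, by 1.41-fold to 1.90-fold, where 14.1% of the 28620 probes tested were called higher and 28.4% were called in either direction. The fifth probe, A_44_P1092261, stood well above background on 0 arrays, with 1.43 to 1.83 in Sirt6 shRNA arrays and 1.05 to 1.46 in scrambled arrays.

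Ciart was dim, and the size of its change depended on how background was handled and on the probes used. On the brightest probe it was 0.15 with normexp background correction, a setting that also added 50 to each signal. On the same probe it was 0.33 with 16 added to each signal. For the mean of the Ciart probes it was 0.71, and the call was kept in all 21 settings. The 3 probes of Ciart and Per3 that were not well above background also averaged 0.40 to 0.44 higher in Sirt6 shRNA arrays than in scrambled arrays, with overlapping groups. The part of this difference at the dim end in the Ciart values was not tested.

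**Figure D2:**
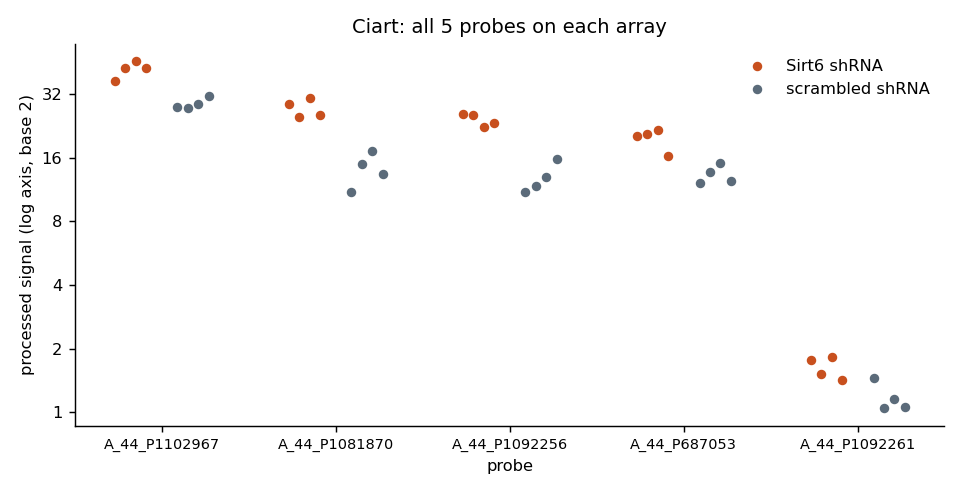
Processed signal of the 5 Ciart probes in every array (log axis, base 2, before scaling), Sirt6 shRNA left of scrambled shRNA. The 4 probes above background are higher in all 4 Sirt6 shRNA arrays, and A_44_P1092261 lies at the bottom of the scale with overlapping groups.

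The Ciart start has 3 copies of the E-box CACGTG in the 250 bases before it, in capitals (RefSeq, GRCr8, chr2:186112247-186112496, minus strand), and is shown for that reason.
Ciart: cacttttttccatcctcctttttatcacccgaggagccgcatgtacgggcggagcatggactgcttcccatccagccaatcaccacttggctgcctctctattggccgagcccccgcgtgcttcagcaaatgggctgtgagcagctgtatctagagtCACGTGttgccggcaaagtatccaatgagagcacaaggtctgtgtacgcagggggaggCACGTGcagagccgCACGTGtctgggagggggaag
They begin 93, 35 and 21 bases before the start. An E-box is found in 5.59% of the 33469 promoters, on either strand, and in 2 of the 9 clock genes in the table, Ciart and Nr1d1. Cry1 was not matched.

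The REV-ERB receptors repress Bmal1 and are themselves E-box genes, and the 2 paralogs moved apart. Nr1d2, which encodes REV-ERB beta, was higher: its brighter probe (A_43_P15057, not placed on a chromosome in the files) read 1324, 1305, 1316 and 1311 with the Sirt6 shRNA, against 1118, 1046, 1102 and 1064 with the scrambled shRNA. The Sirt6 shRNA arrays were nearly equal to each other and all above the scrambled arrays. The difference was 0.24 ± 0.041 (log2 ± SE, limma adjusted p = 0.00377), 1.18-fold higher and called in all 21 settings. A dim second probe (A_44_P395572) read 9.68, 12, 11.1 and 11.3 in Sirt6 shRNA arrays against 9.72, 6.55, 7.95 and 7.20 in scrambled arrays, with a difference of 0.46 ± 0.13 (limma adjusted p = 0.0340 over probes) and groups that overlapped through Sirt6 shRNA replicate 1 and scrambled replicate 1.

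Nr1d1, which encodes REV-ERB alpha, was lower on its only probe (A_44_P175041, chr10:87543165-87543519, minus strand, rn4). Its signals were 74.5, 73.2, 69.5 and 75.6 in Sirt6 shRNA arrays, against 73.8, 79.9, 84.3 and 84.9 in scrambled arrays. The unscaled signals overlapped through scrambled replicate 1, and the scaled levels did not. The difference was -0.18 ± 0.056 (log2 ± SE, limma adjusted p = 0.0420, 1.13-fold lower). Of the 8 calls it was the one lost most often: it was lost in 10 of 21 settings, among them the omission of Sirt6 shRNA replicate 1 (adjusted p = 0.0749), 2 (0.0673) or 3 (0.0877) or of scrambled replicate 2 (0.0864), 3 (0.0856) or 4 (0.101). The RefSeq table holds 2 starts for Nr1d1 on GRCr8, chr10:84231813-84232062 and chr10:84229455-84229704, both on the minus strand, and each has 1 E-box or E′-box, in capitals.
Nr1d1, first start: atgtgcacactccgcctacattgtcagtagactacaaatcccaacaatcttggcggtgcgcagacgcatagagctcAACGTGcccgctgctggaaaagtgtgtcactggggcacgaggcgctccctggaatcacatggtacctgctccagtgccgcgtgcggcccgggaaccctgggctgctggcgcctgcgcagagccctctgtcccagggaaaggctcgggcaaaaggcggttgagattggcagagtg
Nr1d1, second start: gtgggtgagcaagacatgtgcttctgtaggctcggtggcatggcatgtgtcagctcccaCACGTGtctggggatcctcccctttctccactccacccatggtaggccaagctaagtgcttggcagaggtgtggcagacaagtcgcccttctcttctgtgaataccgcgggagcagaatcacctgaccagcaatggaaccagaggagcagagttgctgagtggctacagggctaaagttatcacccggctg
In the first the E′-box lies on the opposite strand, so that it reads AACGTG, 174 bases before the start. In the second the E-box begins 191 bases before the start. Of the other genes, Cry2 had an E′-box 212 bases before its start and Nr1d2 had AGGTCA, the core of the site that ROR and REV-ERB receptors read, 187 bases before its start. AGGTCA is found in 14.1% of promoters. TGACGTCA, the cAMP response element, was in none of the 10 stretches of the 9 genes and is found in 1.59% of all promoters.

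Dbp, the D-box activator whose transcript is a direct output of the loop, had the smallest p of the 10 genes. The array carries 2 probes for it, and the brighter is printed at 10 spots on each array, so it is the most densely measured transcript here. Both lie on the plus strand of chromosome 1 in rn4, at separate positions.
A_64_P017188 (chr1:96178423-96178482): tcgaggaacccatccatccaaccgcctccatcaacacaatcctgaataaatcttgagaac
A_44_P1164136 (chr1:96178285-96178344): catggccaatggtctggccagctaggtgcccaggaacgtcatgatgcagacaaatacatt
The brighter probe read 1569, 1742, 1629.8 and 1632 with the Sirt6 shRNA, against 2290.1, 2308, 2385 and 2268 with the scrambled shRNA. Single spots ran from 1466 to 1834 over the 4 Sirt6 shRNA arrays and from 2153 to 2505 over the 4 scrambled arrays, so that no spot of 1 group reached the other. The scaled level averaged 2.31 ± 0.080 with the Sirt6 shRNA and 2.85 ± 0.022 with the scrambled shRNA (SD, n = 4 each). The difference was -0.53 ± 0.046 (log2 ± SE, limma adjusted p = 0.000169), which left 69.0% of the scrambled level and ranked 417 of 22549 genes by p. The second probe read 1190.4, 1279.8, 1240.2 and 1247 in Sirt6 shRNA arrays, against 1713, 1698, 1692 and 1706 in scrambled arrays, and gave -0.50 ± 0.045 (limma adjusted p = 0.000218 over probes). The change was thus nearly the same on both probes, and it stayed called in all 21 settings, between -0.58 and -0.46.

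By Pearson's r over the 8 arrays, the genes outside every list whose levels ran most like those of Dbp were Icoslg (r = 0.9987), Sgpl1 (0.9974) and Cxcl14 (0.9973). They differed by -0.94, -0.42 and -0.75 in log2. All 8 arrays enter these values, so they mostly restate the step between the groups, and they are given as a description.

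Within a family, the difference between 2 genes on the same array does not depend on a constant subtracted from each array. The pairs were chosen after the values had been seen, so the values are a description with no test, and since each probe has its own sensitivity only the change in a difference can be read. Per2 minus Per1 was -2.19 ± 0.083 with the Sirt6 shRNA and -2.79 ± 0.117 with the scrambled shRNA (log2, SD, n = 4 each), a shift of 0.60 toward Per2. Nr1d2 minus Nr1d1 was 4.17 ± 0.054 with the Sirt6 shRNA and 3.75 ± 0.12 with the scrambled shRNA, a shift of 0.42 toward Nr1d2. Cry2 minus Cry1 was 3.19 ± 0.053 with the Sirt6 shRNA and 2.92 ± 0.096 with the scrambled shRNA, a shift of 0.27 toward Cry2. In each of these 3 pairs the 4 Sirt6 shRNA arrays lay above the 4 scrambled arrays. For the other 2 pairs of the period family, the shift was 0.18 toward Per3 against Per1 and 0.42 toward Per2 against Per3, again without overlap. Settings that treat probes by their signal kept the direction of every shift and changed the sizes. Per2 minus Per1 was 0.50 with normexp and 0.58 after quantile normalization, Nr1d2 minus Nr1d1 0.38 and 0.44, and Cry2 minus Cry1 0.24 and 0.29. In the same order, Per3 minus Per1 was 0.12 and 0.15, and Per2 minus Per3 was 0.38 and 0.43.

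**Figure D3:**
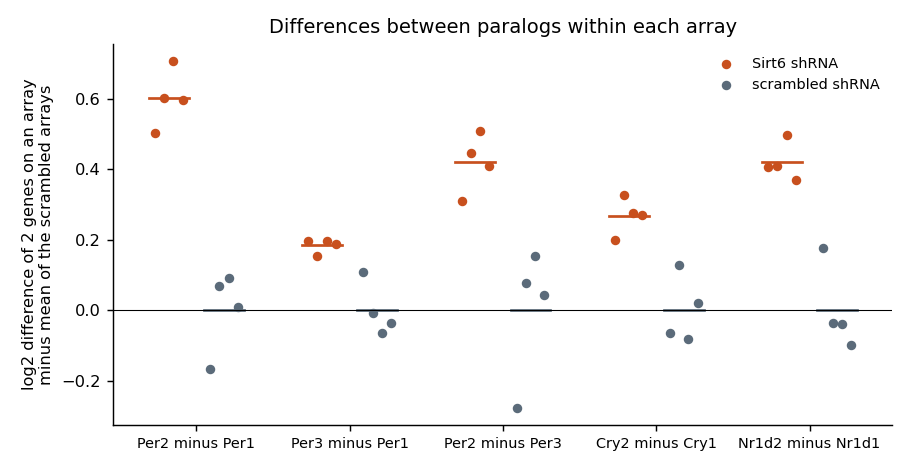
Within-array log2 difference between paralogs in each array, relative to the mean of the scrambled arrays, Sirt6 shRNA left of scrambled shRNA, with short lines at group means. In all 5 pairs the 4 Sirt6 shRNA arrays lie above the 4 scrambled arrays, with the largest shift, 0.60, for Per2 minus Per1.

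The wider pathway was read from 29 other clock genes, also chosen with earlier results of these data known. Of these, 10 were lower, 4 were higher and 15 did not pass the test. The groups did not overlap for 15 of them, against 33.4% of all genes. Their median difference was 0.034, and 48.3% were called against 30.4% of all genes. Among the activators and ROR receptors 3 of 5 were lower and 0 higher. Besides Bmal1 these were Rorb (-0.29 ± 0.043, limma adjusted p = 0.00205) and Rora (-0.23 ± 0.051, adjusted p = 0.0113), receptors that bind the same element as the REV-ERBs, and all 3 calls were lost with E1A spike-in scaling.

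Of the 12 kinases, ubiquitin ligase subunits and partners that act on PER and CRY proteins, 2 were lower and 1 higher, a share of 25% that lies below the 30.4% of all genes. Prkaa1, a catalytic subunit of the AMP-activated kinase, which phosphorylates CRY1, had signals of 769, 763, 834 and 750.0 in Sirt6 shRNA arrays against 988, 997, 1055 and 976 in scrambled arrays, without overlap (log2 -0.41 ± 0.035 SE, limma adjusted p = 0.000161). Fbxw11, an F-box protein that recognises phosphorylated PER, read 1673, 1388, 1752 and 1491 in Sirt6 shRNA arrays against 2198, 2095, 2434 and 2290.5 in scrambled arrays, again without overlap (-0.56 ± 0.069, adjusted p = 0.000804, and -0.87 on its other probe). Both were called in all 21 settings. Timeless, the mammalian relative of a fly clock gene that also acts at replication forks, was at 0.22 ± 0.065 (limma adjusted p = 0.0359) and lost its call in 11 of 21 settings, 6 of them omissions of 1 array (highest adjusted p = 0.0774).

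Of the 12 outputs and E-box or D-box regulators, 5 were lower and 3 higher, a share of 66.7% against 30.4% of all genes. All 8 of these calls were lost with E1A spike-in scaling (adjusted p = 0.0587 for Nampt to 0.727 for Bhlhe40). Nampt, the rate-limiting enzyme of NAD salvage and a clock output, read 203, 204, 237 and 226 with the Sirt6 shRNA, against 272, 297, 279 and 269 with the scrambled shRNA. The groups did not overlap (log2 -0.40 ± 0.060 SE, limma adjusted p = 0.00198), and the call was also lost with the mean of its probes (-0.33, adjusted p = 0.125). Klf9, a zinc finger factor that glucocorticoids and the clock induce, was at -0.36 ± 0.046 (limma adjusted p = 0.000975). The E-box repressor genes Bhlhe41 and Bhlhe40 were at -0.34 ± 0.083 (limma adjusted p = 0.0174) and -0.13 ± 0.035 (0.0269). Bhlhe40 lost its call in 5 of the 8 omissions of 1 array, with a highest adjusted p of 0.0752. At the D-box, the repressor gene Nfil3 was lower (-0.29 ± 0.051, limma adjusted p = 0.00430) and Tef, an activator of the same class as Dbp, was higher (0.18 ± 0.043, adjusted p = 0.0149), opposite to Dbp. The other higher genes were Noct, nocturnin, a rhythmic enzyme, at 0.29 ± 0.076 (limma adjusted p = 0.0223), and the zinc finger gene Klf10 at 0.22 ± 0.061 (0.0281). Noct lost its call in 3 omissions of 1 array (highest adjusted p = 0.0546) and Klf10 in 5 (highest 0.0670), and after median centring none of the 4 higher pathway genes was called.

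**Figure D4:**
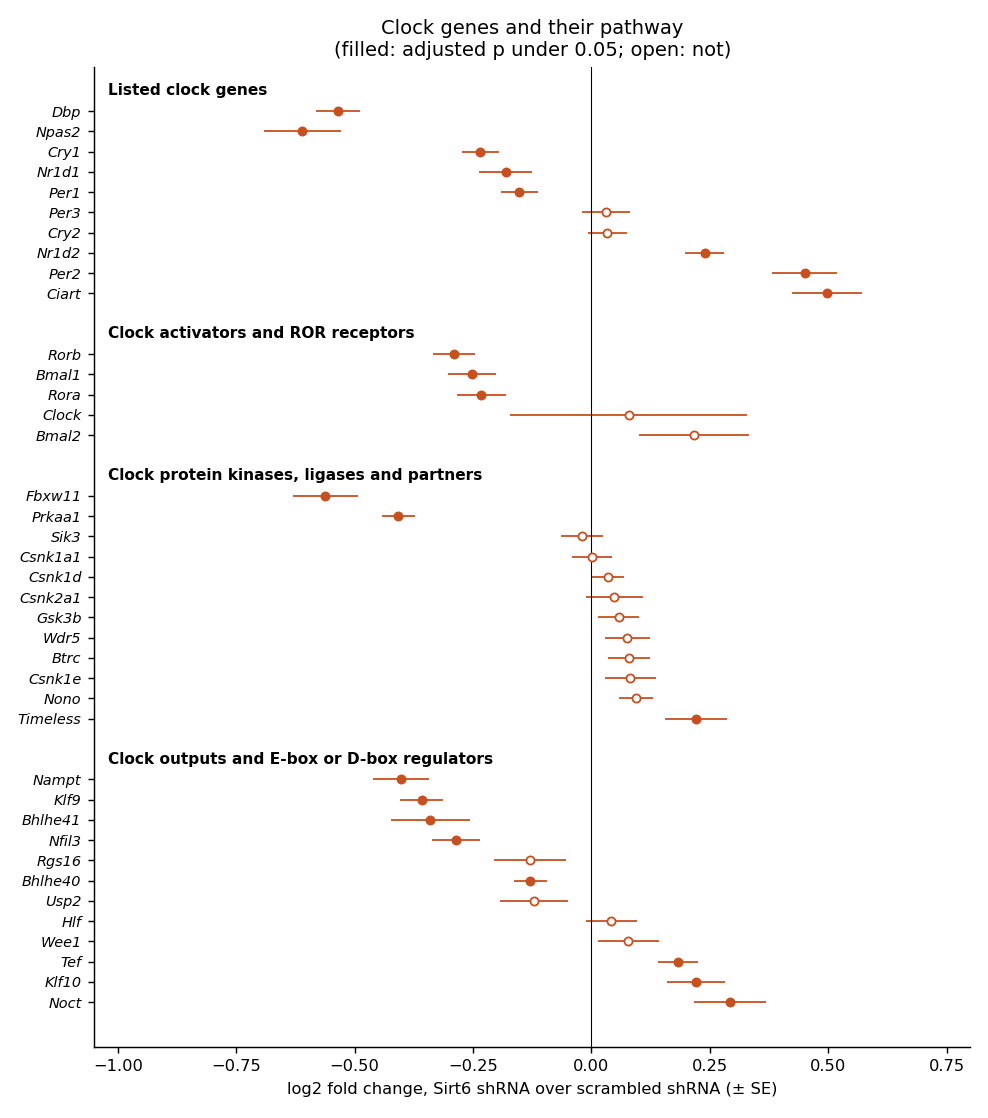
Log2 difference, Sirt6 shRNA minus scrambled shRNA, with its SE for the 10 clock genes and the other clock pathway genes tested, grouped by role. Called genes are filled: Npas2, Fbxw11 and Dbp lie farthest to the lower side, and Ciart and Per2 to the higher side.

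Which small changes were called depended on the scaling of the arrays. Of all called genes 51.3% were higher, 35.2% after median centring and 64.1% after scaling on 7 E1A spike-in probes, under which 3266 genes were called in place of 6866. Of the clock genes called lower, Dbp and Npas2 were called under every scaling tried, and Cry1, Per1 and Nr1d1 lost their calls with the spike-ins. These last genes kept their sign there, with smaller differences and larger SEs. Cry1 was at -0.16 ± 0.090 with the spike-ins, against -0.23 ± 0.040 in the main fit. Per2, Nr1d2 and Ciart were called higher under every scaling tried.

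**Figure D5:**
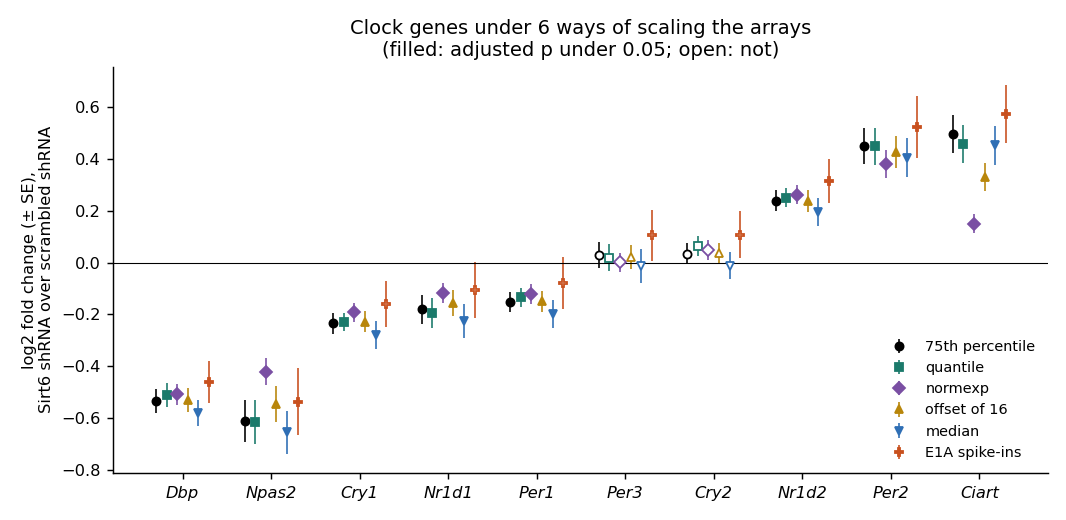
Log2 difference of each clock gene, Sirt6 shRNA minus scrambled shRNA, with its SE under 6 settings of scaling and background; filled symbols are called. Dbp and Npas2 stay below 0 and Per2, Nr1d2 and Ciart above 0 under every scaling shown, and Cry2 and Per3 were called under none of them.

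Other transcripts moved between the same arrays, and their part in the clock values was not tested. Their counts stand beside 14.8% of all genes called lower and 15.6% called higher, and the lists were chosen with earlier results known. Of 12 genes that neuronal activity induces 11 were lower and 0 higher, with a median of -0.97. The 2 of smallest p were Fosb (-2.38) and Nr4a2 (-1.12 on its brightest probe). The 2 other kept probes of Nr4a2 were at -1.03 and 0.035. The summed level of the 12 genes, in units of the array's 75th percentile signal, was 9.01 to 9.79 in Sirt6 shRNA arrays and 14.7 to 18.3 in scrambled arrays. Among 7 glucocorticoid-induced genes 1 was higher (Tsc22d3, 0.29) and 3 were lower (Dusp1, -0.62), and their sums overlapped, 28.2 to 30.5 in Sirt6 shRNA arrays and 29.6 to 30.3 in scrambled arrays. Per1 and Per2 are known targets of both kinds of signal.

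The label of hippocampal neurons was set against cell markers, whose calls are to be read against the 30.4% of all genes called. All 8 neuronal markers were well above background on every array. Of them 3 were higher and 1 lower, and their sum was 128.6 to 145.2 with the Sirt6 shRNA and 130.1 to 135.1 with the scrambled shRNA. Astrocyte markers were 6 of 8 lower and 0 higher (S100b -1.42, Gfap -0.71), with a sum of 174.0 to 190.6 in Sirt6 shRNA arrays against 245.6 to 272.4 in scrambled arrays. Among the bright genes in this sum, S100b was at 37.3% of the scrambled level, and Aqp4 and Slc1a3 were at 86.5% and 86.0%. The sum without S100b was not computed. Oligodendrocyte lineage markers were 2 of 8 lower (Mbp -1.31, Olig1 -0.37) and 1 higher, with 41.8 to 43.7 in Sirt6 shRNA arrays against 46.9 to 52.0 in scrambled arrays. The Mbp value is that of its brightest probe, and its other kept probe was at 0.028. Microglia markers were 3 of 8 lower and 0 higher (Tmem119 -0.89), a share of 37.5%. Their sums overlapped, with 36.6 in Sirt6 shRNA replicate 2 and 18.6 to 21.7 in the other Sirt6 shRNA arrays, against 26.0 to 36.6 in scrambled arrays. Sirt6 shRNA replicate 2 thus stood apart from its group in these markers. Endothelial and mural markers were 2 of 6 higher and 0 lower (Tagln 2.14, Acta2 0.71), with 10.9 to 13.3 in Sirt6 shRNA arrays against 3.33 to 4.10 in scrambled arrays. Tagln alone made up 9.71 to 12.1 of the sum in Sirt6 shRNA arrays and 2.13 to 2.83 in scrambled arrays, and without it the sums overlapped, 1.14 to 1.27 in Sirt6 shRNA arrays and 1.15 to 1.27 in scrambled arrays. Cldn5 and Rgs5 were well above background on fewer than 4 of the 8 arrays and were not tested. Fibroblast and meningeal markers were 5 of 7 higher and 0 lower (Slc6a13 0.53), with 20.2 to 22.9 in Sirt6 shRNA arrays against 15.97 to 18.6 in scrambled arrays. Lum was not tested, by the same rule. Markers of other cell types were thus measured beside those of neurons, and clock genes are active in most cell types.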

How the data were processed

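The labels gave the groups and replicate numbers. The deposited per-array files hold spot intensity values, which the submitters' processing notes credit to Agilent Feature Extraction (version 11.5.1.1), background-subtracted and detrended by that software per the file headers, with no normalization between arrays. A deposited table holds the authors' log2 values, which equalled the log2 processed signal minus 1 constant per array (SD of the difference at most 0.0029). Its column medians lay between -3.70 and -3.59 and its 75th percentiles between 0.0075 and 0.01. Its constants were thus nearly the 75th percentiles subtracted here, so as an alternative setting it nearly repeats the main one. Why these constants were chosen is not given in the sources used here.

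Control spots and outlier spots were left out, a probe's spots were averaged after log2, and the 75th percentile of each array (45598 probes) was subtracted. Kept probes were well above background on at least 4 of 8 arrays (28620 probes). Probes were named through a RefSeq gene table (assembly GRCr8): 21109 by systematic name, 2754 by another accession, 5124 by current and 351 by earlier symbols, while 16260 kept the name in the file. The brightest kept probe stood for a gene. The comparison was made in R 4.3.3 with two-sided limma 3.58.1 tests (lmFit, then eBayes), adjusted by Benjamini-Hochberg over 22549 genes, or over 28620 probes where stated. The fit was tested on simulated data.

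The members, the gene lists, the markers and the motifs were chosen with earlier results of these data known. Some genes of the pathway lists are not reported here and enter no list count. The genes named are the 10 clock genes with every probe, Sirt6, each called gene of the clock pathway lists with Clock and Bmal1, up to 2 called genes of smallest p for most other lists, and 3 genes most like Dbp by Pearson's r. Alternatives were quantile normalization, median centring, normexp background correction (offset 50), E1A spike-in scaling, the authors' table, 16 added before log2, other filters and probe rules, array weights, eBayes set to trend and robust, a replicate block and the omission of each array. No slide or scan block was fitted, since there was 1 of each. Promoter windows of 250 bases are those of RefSeq, and 9 of the 10 genes were matched. The number of arrays limits the precision.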

Additional observations from a re-analysis of the deposited data

Results flagged for a closer look

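A test for a sample that stands apart from the other 3 of its group (Dixon's gap over range, at its 95% critical value) was made on 64 groups of 4 arrays, and 5 stood out. Chance alone gives about 1 in 20 such groups. All values are log2 levels relative to the array's 75th percentile. Per2 in scrambled replicate 1 was at -0.572, with the other scrambled arrays between -0.335 and -0.296. On the same array Nr1d2 (A_43_P15057) was at 1.84, with the others between 1.71 and 1.73. That array lay on the far side from the Sirt6 shRNA arrays for Per2 and on the near side for Nr1d2, and leaving it out changed neither call. Ciart was at -3.17 on A_44_P1102967 in Sirt6 shRNA replicate 1, against -2.94 to -2.91 in the others, and at -4.31 on A_44_P687053 in Sirt6 shRNA replicate 4, against -4.03 to -3.98. Both of these low Ciart values still lay above every scrambled array on the same probe. Prkaa1 was at 1.29 in Sirt6 shRNA replicate 3, with the others at 1.21 to 1.22.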

How the results depend on the processing

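Per2, Nr1d2, Ciart, Dbp and Npas2 kept their direction and their call in all 21 alternative settings. Counts of calls moved as follows. Genes called fell to 3266 with E1A spike-in scaling, against 6866 as reported, and lay between 5307 and 6593 when 1 array was left out. Clock genes called lower were 2 with the spike-ins and 3 with no filter on dim probes, against 5, and 3 to 5 without 1 array, while those called higher stayed at 3. Other clock pathway genes called lower were 2 with the spike-ins, against 10, and 9 to 11 without 1 array. Those called higher were 0 with the spike-ins, 0 after median centring and 1 with no filter, against 4, and 1 to 4 without 1 array. The sign turned for Per3 (-0.014 after median centring, -0.0064 without scrambled replicate 3), Cry2 (-0.011 after median centring) and Clock (-0.0040 with quantile normalization, -0.0081 and -0.082 without Sirt6 shRNA replicates 3 and 4, -0.053 without scrambled replicate 3), none of them called. Without 1 array Per3 ran from -0.0064 to 0.058 and Clock from -0.082 to 0.29. The cause was not tested. Whether replicate numbers pair the samples was not settled. Deviations of same-numbered arrays correlated at 0.065, 0.162, 0.134 and 0.034, and those of differently numbered arrays at -0.219 to 0.119. Not every array correlated best with its own number, and same-numbered arrays also shared a column of the slide. With the number as a block 6422 genes were called, and 4 clock genes were lower and 3 higher, with Nr1d1 lost (adjusted p = 0.0604), as was Bhlhe40 (0.0649) of the pathway lists, where 9 were lower and 4 higher. Differences of dim probes such as those of Ciart and Clock are limited by signal over background.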
